A study of Drosophila melanogaster with 2 samples.

Results

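The Enhancer of split complex is a cluster of genes on chromosome arm 3R of Drosophila melanogaster, and 10 of its genes are described here, out of 18277 annotated genes. The 10 genes were chosen by measured values of these same peak lists, namely the position and score of called peaks around them, so the peaks are given as a description and no test is made on them. Of the 10 genes, 7 encode basic helix-loop-helix (bHLH) repressors, which are E(spl)mdelta-HLH, E(spl)mgamma-HLH, E(spl)mbeta-HLH, E(spl)m3-HLH, E(spl)m5-HLH, E(spl)m7-HLH and E(spl)m8-HLH. The other 3 encode Bearded family proteins, which are E(spl)malpha-BFM, E(spl)m2-BFM and E(spl)m4-BFM. Every peak was taken whose summit, the position of highest signal in a peak, lay inside a listed gene, within 5000 bp of a listed transcription start site (TSS) or between the first and the last listed gene. This selected 11 of the 3672 thresholded peaks and 36 of 29999 peaks called on pooled replicates. It also selected 36 of 30000 in replicate 1 and 37 of 29999 in replicate 2. The authors made the thresholded list with a reproducibility threshold, and it holds the pooled peaks of highest score.

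The peaks come from chromatin immunoprecipitation and sequencing (ChIP-seq) of CG12299, a predicted zinc-finger protein, in whole embryos aged 0 to 24 h. There is 1 group of 2 biological replicates, from a stable transgenic line in which GFP is fused to the C terminus of CG12299. Chromatin was sheared by sonication and precipitated with an antibody against GFP, although the label for the antibody gives CG12299. Whole embryos of all ages in that window were used, so a peak cannot be placed in a cell type or stage, and the sources used here do not give the promoter that drives the transgene. There is no second condition. The lists hold no read counts, so the depth behind each peak is unknown.

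The complex is a classic direct target of Notch signalling. When Notch is cleaved, its intracellular domain joins the DNA-binding protein Su(H) and the coactivator Mastermind and switches these genes on. The bHLH proteins then repress proneural genes with the help of the corepressor Groucho, whose gene gro lies beside the cluster, and the Bearded family proteins bind the ubiquitin ligase Neuralized and limit the signalling activity of the ligand Delta.

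Sequence around the summits is shown for the 6 thresholded peaks of highest signalValue, since long stretches without G or C mark 4 of them and are missing from the other 2. The letters are the plus strand of 3R, 5′ to 3′, in the RefSeq copy of release 6 of the genome (dm6), from 75 bases before to 75 bases after the summit. Runs of A and T of 10 bases or more are in capitals. The peaks are those upstream of E(spl)m7-HLH (3R:26036605-26036755), upstream of E(spl)m3-HLH (3R:26021251-26021401), upstream of E(spl)m2-BFM (3R:26017940-26018090), upstream of E(spl)mdelta-HLH inside an intron of CG43116 (3R:25996542-25996692), upstream of E(spl)malpha-BFM (3R:26009065-26009215) and in the intron of gro (3R:26042474-26042624).
E(spl)m7-HLH upstream peak: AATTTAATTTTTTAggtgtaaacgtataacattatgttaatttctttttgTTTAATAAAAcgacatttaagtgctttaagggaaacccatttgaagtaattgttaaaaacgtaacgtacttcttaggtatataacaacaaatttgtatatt
E(spl)m3-HLH upstream peak: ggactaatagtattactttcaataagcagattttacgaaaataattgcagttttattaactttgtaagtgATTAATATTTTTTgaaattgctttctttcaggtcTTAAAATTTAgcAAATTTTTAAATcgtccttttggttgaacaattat
E(spl)m2-BFM upstream peak: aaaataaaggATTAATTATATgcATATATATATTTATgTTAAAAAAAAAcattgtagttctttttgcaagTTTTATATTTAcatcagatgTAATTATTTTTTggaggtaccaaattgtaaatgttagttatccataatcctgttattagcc
E(spl)mdelta-HLH distal peak: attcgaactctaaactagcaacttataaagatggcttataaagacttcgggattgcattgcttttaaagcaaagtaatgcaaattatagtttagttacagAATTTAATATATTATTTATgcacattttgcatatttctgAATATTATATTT
E(spl)malpha-BFM upstream peak: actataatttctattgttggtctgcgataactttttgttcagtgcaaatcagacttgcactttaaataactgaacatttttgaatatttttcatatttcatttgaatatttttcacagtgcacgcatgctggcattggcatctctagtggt
gro intron peak: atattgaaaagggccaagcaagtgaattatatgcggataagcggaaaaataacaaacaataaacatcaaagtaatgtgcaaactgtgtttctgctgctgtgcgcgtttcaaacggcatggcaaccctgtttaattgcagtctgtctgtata
Within 50 bp of the summit the longest run was 10 bases for E(spl)m7-HLH, 13 for E(spl)m3-HLH, 12 for E(spl)m2-BFM and 19 for the distal peak of E(spl)mdelta-HLH. It was 9 bases for E(spl)malpha-BFM and 8 in the intron of gro, which therefore have no capitals.

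The 11 thresholded summits were spread over 53.388 kb, from 3R:25992621 to 3R:26046008, a span that reaches 5000 bp past the outer genes. Each peak carries a signalValue, which is the authors' own peak score. Its scale is not given and differs between lists, so it ranks peaks within a list only. In the pooled list the 11 peaks scored 108.2 to 251.0 (median 175.6), and all thresholded peaks had a median of 154.8 and a highest value of 2056.6. Their ranks among pooled peaks were 748 to 3593 (median 1455). The peaks of the complex were thus numerous rather than among the strongest of the genome. A further 25 pooled summits of the complex missed the threshold, with signalValues of 30.0 to 105.4 and a median of 42.6.

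**Figure D1:**
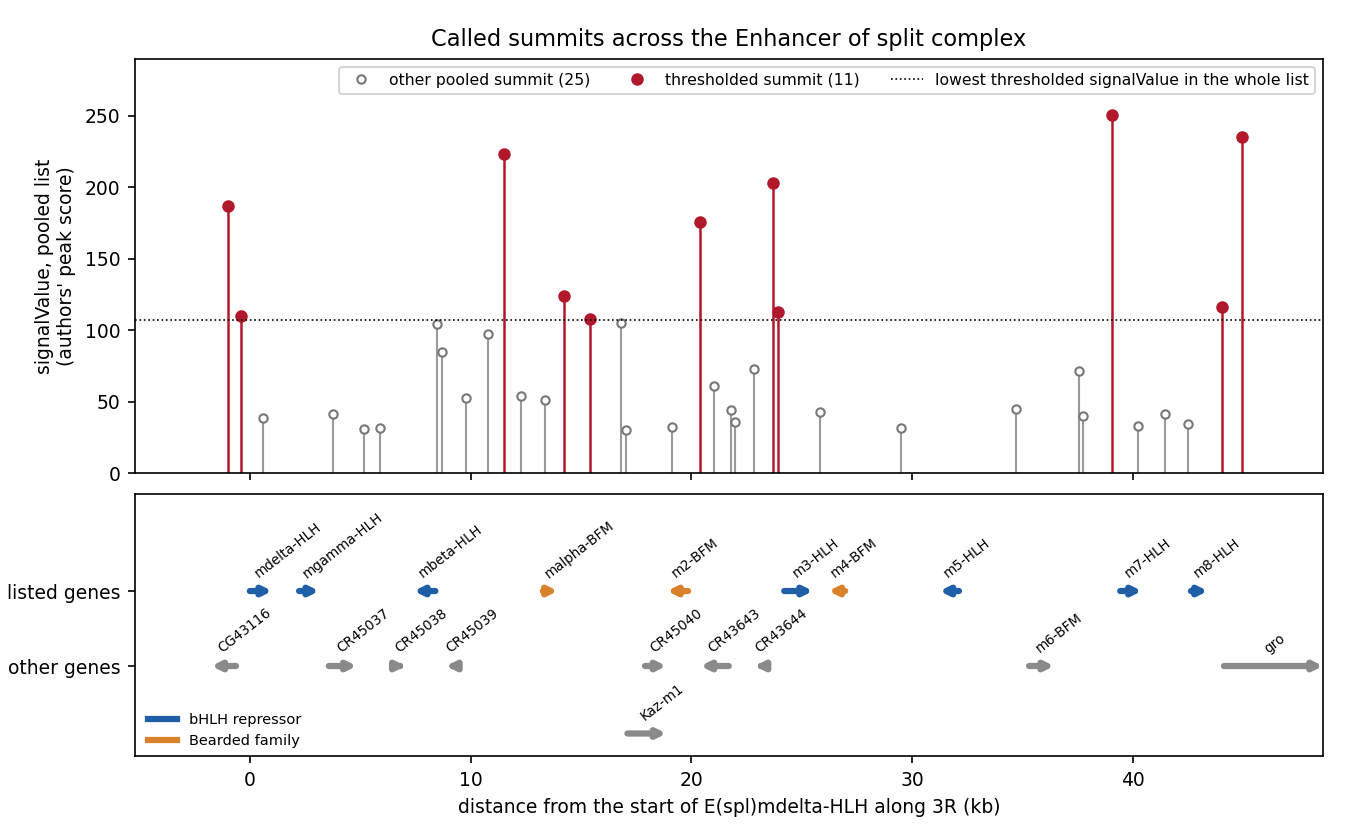
Summits of the pooled peak list across the Enhancer of split complex, with distance from the start of E(spl)mdelta-HLH in kb on the x axis and signalValue (the authors' peak score) on the y axis. Red stems are the 11 thresholded summits, grey stems the 25 others, the dotted line is the lowest thresholded value (107.0), and arrows give the genes and their direction. No red stem stands between 23.9 and 39.1 kb.

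Windows of the same length laid end to end along the arms give the background for this density. The complex held 11 thresholded summits, while 0.24% of the 2504 windows held as many or more, and a window held 1 at the median and 13 at most. For all pooled summits the complex held 36, while 1.44% of windows held as many or more and the median was 11. The complex was selected on its peaks, so these shares describe it and test nothing. The windows were laid after the values had been seen.

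Gene by gene, a TSS of 5 of the 10 listed genes lay within 1000 bp of a thresholded summit, which held for 18.7% of all annotated genes. They were E(spl)m7-HLH, E(spl)m3-HLH, E(spl)mdelta-HLH, E(spl)m2-BFM and E(spl)malpha-BFM. Within 5000 bp there were 9 of 10, all but E(spl)m5-HLH, where 36.7% of all genes had such a summit. Closely packed genes share summits at the wider distance, and 1 summit served up to 3 listed genes. By family, 3 of 7 bHLH genes and 2 of 3 Bearded family genes had a summit within 1000 bp. None of the 11 summits lay inside a listed gene, beside 4 of the 25 weaker pooled summits of the complex. Upstream of the listed gene nearest to them lay 7 of the 11, close to the share among the weaker summits, 15 of 25.

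Among the bHLH repressor genes, E(spl)m7-HLH (3R:26037038-26038019, plus strand) had the strongest peak of the complex. Its summit lay 358 bp upstream of the TSS, with a pooled signalValue of 251.0. The peak had a signalValue of 134.8 and rank 748 in replicate 1, and 114.5 and rank 827 in replicate 2. Its standing was close in both replicates, and no other gene lies between summit and TSS.

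E(spl)m3-HLH (3R:26021823-26023127, plus strand) had a pair of overlapping thresholded peaks, 497 and 292 bp upstream. The farther one had a pooled signalValue of 202.8, and the nearer one 112.5. In replicate 1 they were called separately, with signalValues of 151.2 (rank 578) and 127.3 (rank 827). In replicate 2 the peak whose summit was nearest to either had 60.1 and rank 2688, and it overlapped both but ended short of the nearer pooled summit. A weaker replicate 2 peak, with 22.2 and rank 13741, also overlapped the nearer one. The farther summit was nearer to the start of a divergent noncoding gene, lncRNA:CR43644, at 250 bp, than to E(spl)m3-HLH.

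E(spl)mdelta-HLH (3R:25997621-25998633, plus strand), the first gene of the cluster, had summits 1004 and 399 bp upstream. The distal one, in an intron of the neighbouring gene CG43116, had a pooled signalValue of 187.1, with 93.7 (rank 1544) in replicate 1 and 94.6 (rank 1160) in replicate 2. The proximal one had 110.1 in the pooled list, 43.3 (rank 6918) in replicate 1 and 62.5 (rank 2501) in replicate 2. Both summits were nearer to the TSS of CG43116, at 379 and 226 bp, than to that of E(spl)mdelta-HLH. The proximal peak stood just above the threshold and its ranks differed widely between replicates.

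E(spl)mbeta-HLH (3R:26005046-26006023, minus strand) missed the threshold narrowly. A pooled summit lay 65 bp upstream of its TSS with a signalValue of 104.1, rank 3852, against the lowest thresholded value of 107.0. In replicate 1 the strongest peak within 1000 bp had 55.6 (rank 4436), and in replicate 2 it had 48.9 (rank 3898). The gene's nearest thresholded summit was 3117 bp upstream.

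E(spl)m8-HLH (3R:26040240-26041008, plus strand) had a weak pooled summit 122 bp upstream, with a signalValue of 34.6 and rank 22632. Replicate 1 had a peak there of 30.4 (rank 12746), and replicate 2 had none within 1000 bp. Its nearest thresholded summit lay 1386 bp downstream of its TSS, at the start of gro. E(spl)mgamma-HLH (3R:25999851-26000761, plus strand) had no summit within 1000 bp in any of the 4 lists, and its nearest thresholded summit was 2629 bp upstream, the proximal one of E(spl)mdelta-HLH.

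E(spl)m5-HLH (3R:26028854-26029735, minus strand) stood farthest from a thresholded summit, at 6945 bp. Within 1000 bp it had only a replicate 1 peak of signalValue 18.8, rank 29749, near the bottom of that list. It lies in the longest stretch of the complex without a thresholded summit, 15149 bp from 3R:26021531 to 3R:26036680, where the median spacing between neighbouring summits was 3015 bp. This stretch holds E(spl)m3-HLH, E(spl)m4-BFM and E(spl)m5-HLH and the related gene E(spl)m6-BFM, which is not on the list. It contained 5 pooled summits below the threshold, with signalValues of 31.5 to 71.4.

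Among the Bearded family genes, E(spl)m2-BFM (3R:26016514-26017470, minus strand) had a summit 545 bp upstream with a pooled signalValue of 175.6. The closest replicate 1 peak had 61.9 (rank 3601), a second overlapping replicate 1 peak had 90.0 (rank 1688), and the replicate 2 peak had 90.1 (rank 1272). Its replicate 1 standing therefore depends on which of its overlapping peaks is matched.

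E(spl)malpha-BFM (3R:26010893-26011568, plus strand) was flanked by 3 thresholded summits. The strongest, 1753 bp upstream, had 223.4 in the pooled list, 113.3 (rank 1069) in replicate 1 and 105.5 (rank 948) in replicate 2. The second lay 967 bp downstream of the TSS, past the end of the gene, with 123.9 in the pooled list, 84.2 (rank 1948) in replicate 1 and 35.7 (rank 6547) in replicate 2. The third, 2121 bp downstream, had 108.2 in the pooled list, 52.0 (rank 5023) and 58.1 (rank 2856), and the TSS nearest to it was that of Kaz-m1, a Kazal-type protease inhibitor gene, at 1707 bp. The upstream peak thus had similar ranks in both replicates and the peak past the gene's end did not. E(spl)m4-BFM (3R:26023821-26024579, minus strand) had no summit within 1000 bp in any list, and its nearest pooled summit, 1159 bp downstream of the TSS, had a signalValue of 42.6.

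The TSS nearest to a summit was often that of an unlisted neighbour. A listed gene was nearest for 5 of the 11 thresholded summits, and 4 listed genes were nearest to any: E(spl)malpha-BFM, E(spl)m2-BFM, E(spl)m3-HLH and E(spl)m7-HLH. Of the other 6 summits, 2 were nearest to CG43116, 2 to gro, 1 to Kaz-m1 and 1 to lncRNA:CR43644. Of those at gro, which encodes the corepressor Groucho, the first was 110 bp upstream of its first TSS, with 116.2 in the pooled list, 56.6 (rank 4295) in replicate 1 and 60.2 (rank 2680) in replicate 2. The second was in its intron, 92 bp upstream of an internal TSS, with 235.2 in the pooled list, 136.7 (rank 727) and 103.5 (rank 984). In all, 7 of 11 summits lay within 500 bp of some TSS, close to the 59.2% of all thresholded summits that did. The lncRNA genes CR45037, CR45038, CR45039, CR45040 and CR43643 and the genes Kaz-m1 and E(spl)m6-BFM had no thresholded summit within 1000 bp.

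The threshold cuts through the complex at closely spaced values. The weakest members just inside it had 108.2, 110.1 and 112.5, at ranks 3593, 3469 and 3331. Just outside were 105.4 upstream of Kaz-m1 (rank 3770), 104.1 upstream of E(spl)mbeta-HLH (rank 3852) and 97.4 upstream of lncRNA:CR45039 (rank 4325).

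Agreement between replicates was uneven. The ranks of a peak in the replicates differed by at least 2 times for 5 of the 11 peaks, where 28.5% of all thresholded peaks did, with a median ratio of 1.76 in the complex and 1.52 overall. The largest ratio, 4.65, was that of the stronger E(spl)m3-HLH peak. Replicate 1 gave the higher rank to 5 peaks and replicate 2 to 6. Of the 11 peaks, 7 overlapped one of the 3672 strongest peaks of both replicates, close to the 72.1% of all thresholded peaks. Both E(spl)m3-HLH peaks were matched to the same replicate 2 peak, and with each replicate peak used 1 time the count was 4 of 10, beside 28.2% of all. Matched to the strongest overlapping peak it was 4 of 11, beside 26.5%, since the E(spl)m2-BFM peak then dropped out. These 2 ways of matching were added after the values had been seen. The matched summits lay 46 bp apart at the median, beside 31 bp over all thresholded peaks, and at most 198 bp apart. With each replicate peak used 1 time they lay at most 97 bp apart.

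**Figure D2:**
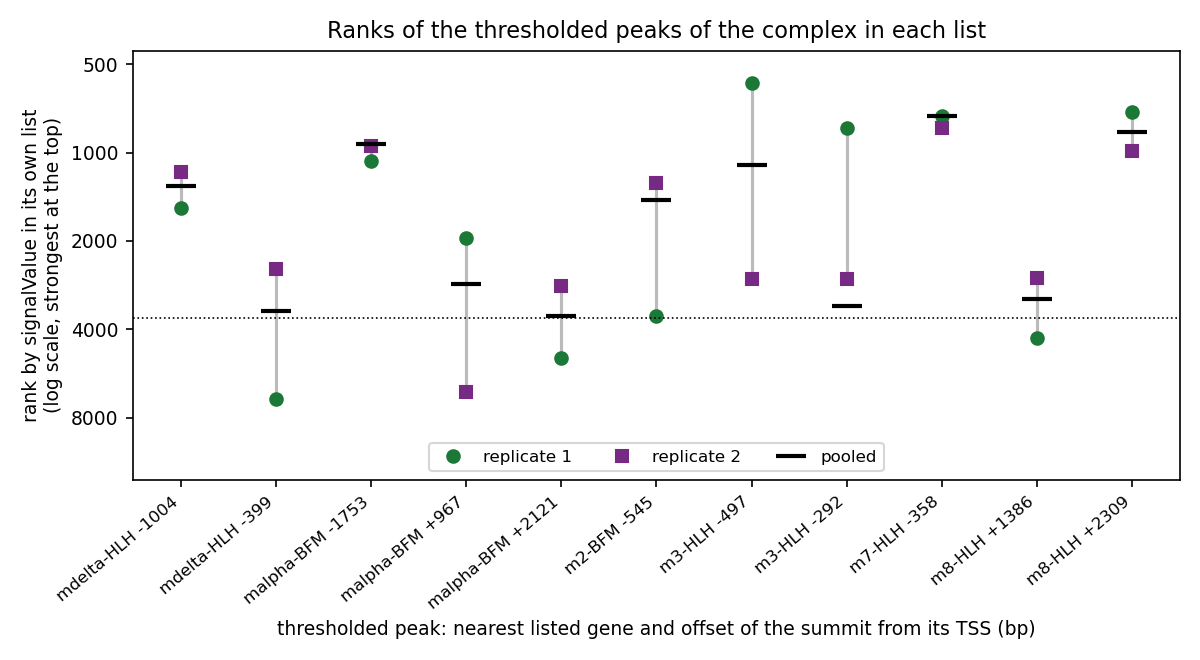
Rank by signalValue of each thresholded peak of the complex in replicate 1 (circles), replicate 2 (squares) and the pooled list (bars), on a log scale with the strongest at the top. Peaks are labelled with the nearest listed gene and the offset of the summit from its TSS in bp, and the dotted line marks rank 3672, the length of the thresholded list. The peaks at E(spl)m7-HLH -358, E(spl)malpha-BFM -1753, E(spl)mdelta-HLH -1004 and E(spl)m8-HLH +2309 have close ranks, and those at E(spl)m3-HLH -497 and E(spl)malpha-BFM +967 do not.

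The thresholded summits of the complex were poor in G and C. Within 50 bp of the summit the GC content was 26.4% ± 6.41 (SD over 11 summits, 17.8 to 40.6%), against 34.1% ± 9.96 (SD) over all 3672 thresholded summits. The 25 weaker summits of the complex had 45.9% ± 11.4 (SD), and the whole region had 44.3%. A run of A and T of 10 bases or more occurred at 9 of the 11 summits, where 54.6% of all thresholded summits had one. It occurred at 4 of the 25 weaker ones, where 10806 of all 29999 pooled summits had one. GC content over all pooled summits was 40.4% ± 10.3 (SD), so thresholded summits were poorer in G and C over the whole lists too. The lowest GC content among the 11 summits, 17.8%, was 2121 bp downstream of E(spl)malpha-BFM, and the highest, 40.6%, in the intron of gro. The part of base composition in which peaks were called was not tested.

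**Figure D3:**
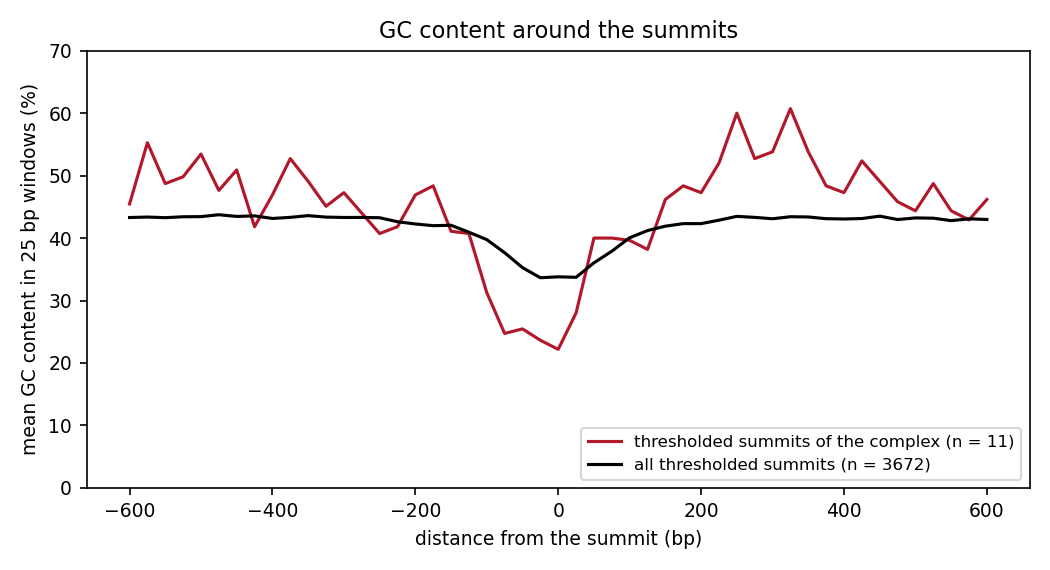
Mean GC content in windows of 25 bp (y axis, %) against distance from the summit (x axis, bp) for the 11 thresholded summits of the complex and for all 3672. At the summit the complex is at 22.2% and all thresholded summits are at 33.8%, and the dip is narrower than 150 bp on either side.

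Words of known regulators were sought on either strand in the 150 bp on each side of a summit. The Su(H) words TGTGGGAA, TGTGAGAA, CGTGGGAA and CGTGAGAA were at 0 of the 11 thresholded summits, and at 2.72% of all thresholded and 3.27% of all pooled summits. The bHLH repressor words CACGTG and CACGCG were at 0 of 11, against 9.99% of all thresholded summits. The proneural E-box words CAGCTG and CAGGTG were at 2 of 11 against 22.4%, and GAGAG, bound by GAGA factor, at 2 of 11 against 35.7%. TATAAA was at 7 of 11 against 46%, TAATTA, a homeodomain core, at 4 of 11 against 23.2%, TTTAAAA at 3 of 11 against 29.3%, TCGATA, the core of the DNA replication-related element, at 1 of 11 against 21%, and CAGGTAG, the word of the zygotic activator Zelda, at 0 of 11 against 1.03%. The counts of all these words, those with G and C as well as those of A and T alone, share the base composition given above. Its part in them was not tested. The 2 summits upstream of E(spl)m3-HLH are 205 bp apart, so their windows overlap. Some of the same TATAAA and GAGAG words are counted at both, and these are the 2 summits with GAGAG. With 11 summits these counts are small, and an absent word says only that its letters are not in the window.

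Su(H) words were present in the complex. None lay within 150 bp of its 11 thresholded summits, which is close to the 2.72% of all thresholded summits that had one. There were 40 in the region, of which 24 lay within 1000 bp upstream of a listed TSS, at 79 to 961 bp with a median of 483.5 bp. They stood upstream of 8 of the 10 listed genes, all but E(spl)mdelta-HLH and E(spl)m3-HLH, where 11.6% of the 18164 genes on these arms have such a word in that window. Both of these genes had words farther upstream, the nearest at 1313 bp for E(spl)mdelta-HLH and 1044 bp for E(spl)m3-HLH. The word nearest to a thresholded summit was 283 bp away, and the median distance was 1690.5 bp. E(spl)malpha-BFM had 5 such upstream words, E(spl)mgamma-HLH and E(spl)m5-HLH 4 each, E(spl)m4-BFM, E(spl)m7-HLH and E(spl)m8-HLH 3 each, and E(spl)mbeta-HLH and E(spl)m2-BFM 1 each. The genes E(spl)mgamma-HLH, E(spl)m4-BFM and E(spl)m5-HLH, without a pooled summit within 1000 bp, had as many words as E(spl)m7-HLH or more. E(spl)m7-HLH had the strongest peak. E(spl)malpha-BFM, with the most words, was flanked by thresholded summits. E(spl)mdelta-HLH and E(spl)m3-HLH had thresholded summits within 1000 bp but no word in that window. A relation between words and peaks was not tested.

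**Figure D4:**
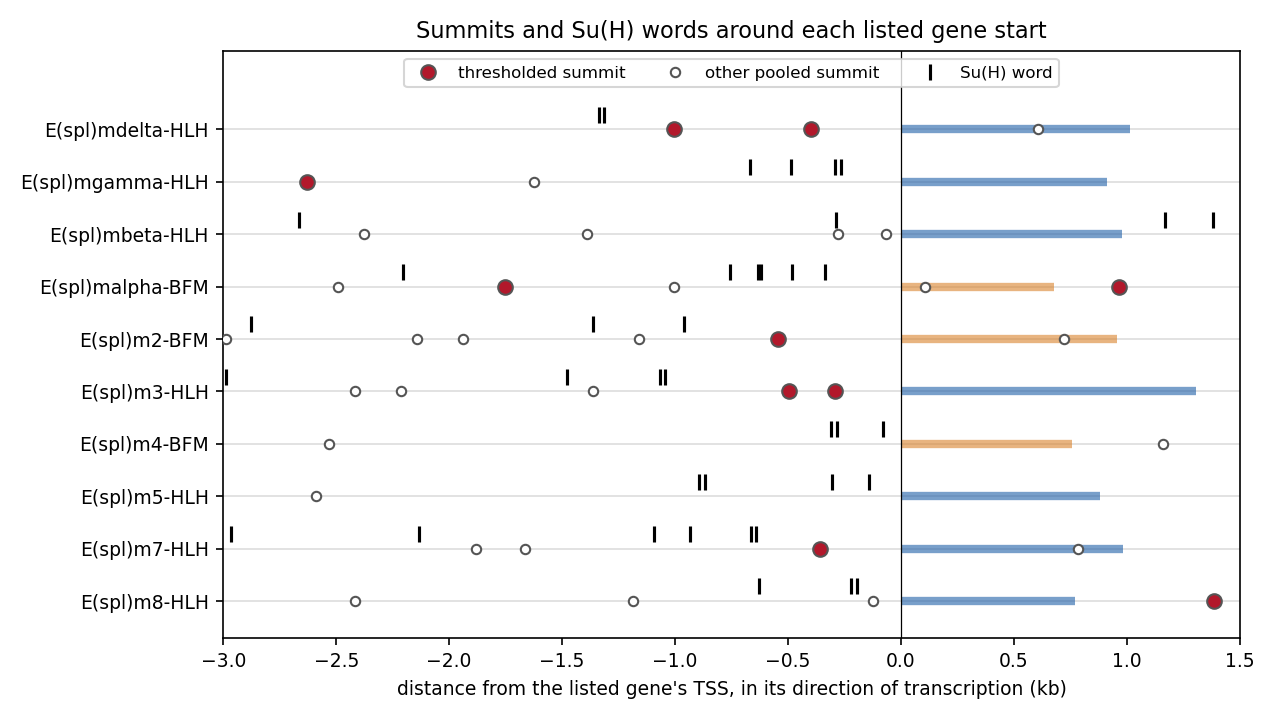
Thresholded summits (red), other pooled summits (white) and Su(H) words (black ticks) around the TSS of each listed gene, with distance in the direction of transcription in kb on the x axis and bars for the genes. No tick lies within 150 bp of a red circle, and the nearest is 283 bp from one, at E(spl)m7-HLH.

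Some of the Su(H) words form pairs that face each other, an arrangement known from Notch target genes. Of the 7 pairs of the region with 15 to 17 bases between the words, 6 are shown, so that their places can be set beside the summits. They are the plus strand of 3R, 5′ to 3′, with the words in capitals.
E(spl)mdelta-HLH pair (3R:25996282-25996312): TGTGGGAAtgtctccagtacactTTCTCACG
E(spl)mgamma-HLH upstream pair (3R:25999557-25999589): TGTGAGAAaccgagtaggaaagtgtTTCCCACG
E(spl)mgamma-HLH downstream pair (3R:26002613-26002645): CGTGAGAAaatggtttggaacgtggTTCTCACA
E(spl)m4-BFM pair (3R:26024858-26024890): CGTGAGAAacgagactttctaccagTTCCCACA
E(spl)m7-HLH pair (3R:26036369-26036401): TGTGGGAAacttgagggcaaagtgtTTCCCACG
E(spl)m8-HLH pair (3R:26040016-26040048): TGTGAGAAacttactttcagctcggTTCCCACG
The E(spl)m7-HLH pair lies 666 to 641 bp upstream of its TSS, so the strongest peak of the complex, at -358, sits between the pair and the gene, 283 bp from the nearer word. The same order holds at E(spl)mdelta-HLH, where the pair at -1336 to -1313 is 309 bp from the distal summit. The E(spl)m8-HLH pair, at -221 to -196, is 1582 bp from a thresholded summit but 74 bp from the weak pooled summit of 34.6. The E(spl)m4-BFM pair is 3330 bp from a thresholded summit, and the E(spl)mgamma-HLH pairs are 2338 and 5394 bp from one. Pairs of this kind with 17 bases between the words occurred 7 times on all arms, and 6 of these were in the complex. At the other spacings of 5 to 30 bases there were 0 to 2 per spacing on all arms. The spacing was chosen after the words had been seen, and the pairs are a property of the genome, not of the ChIP-seq data.

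Of the 40 words, 5 lay within 150 bp of a pooled summit, all of them below the threshold. The closest was 9 bp from a summit 279 bp upstream of E(spl)mbeta-HLH, whose signalValue was 84.6. The others were near summits of 73.1 upstream of E(spl)m3-HLH, 34.6 upstream of E(spl)m8-HLH (2 words) and 30.8 downstream of E(spl)mgamma-HLH.

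Other developmental gene clusters did not carry as many thresholded summits per length. The Enhancer of split complex was selected on its peaks, and the other clusters were chosen with earlier results of these data known. This order therefore describes it and tests nothing. With 5000 bp on either side, it had 2.06 thresholded summits per 10 kb, against 0.274 over all arms. Its summits at CG43116 and gro lie in those flanks, and without flanks it had 1.61 per 10 kb. The part of gene density in these values was not tested. The Bearded complex, which holds Bearded family genes outside the Enhancer of split complex, had 0 in 40.542 kb. The achaete-scute complex of proneural genes, which Enhancer of split proteins repress, had 0 in 103.146 kb, the Iroquois complex had 1 in 139.578 kb, the bithorax complex 5 and the Antennapedia complex 6. In the pooled list the Enhancer of split complex had 6.74 summits per 10 kb, against 0.970 in the achaete-scute complex, 2.47 in the Bearded complex and 2.24 over all arms.

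**Figure D5:**
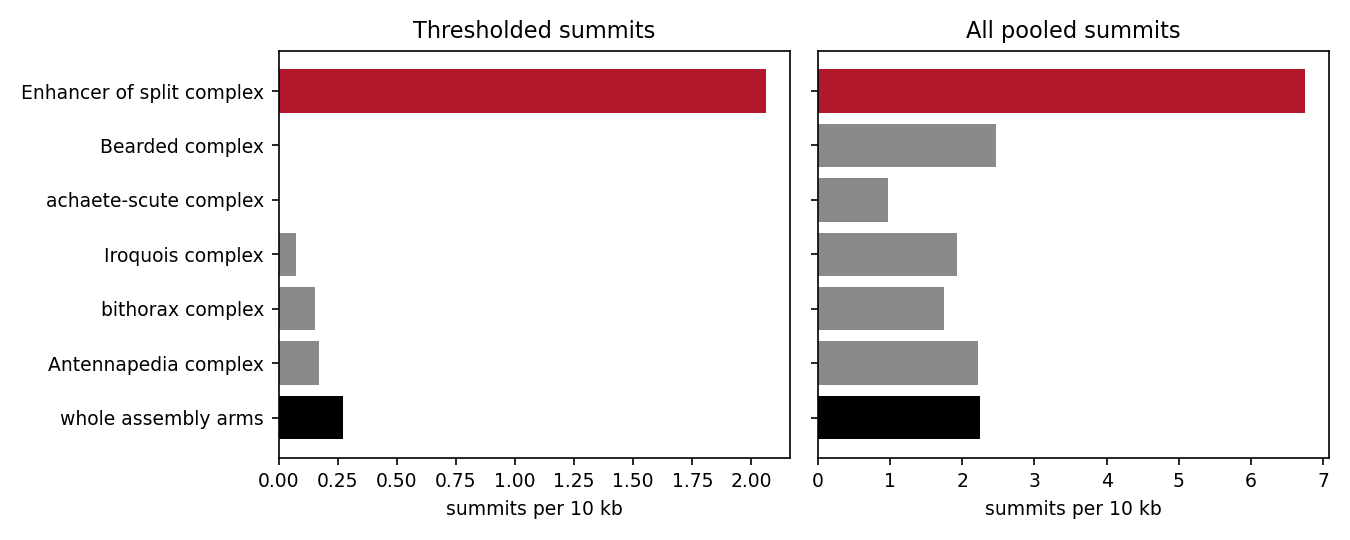
Summits per 10 kb (x axis) in 6 gene clusters and over all arms (y axis), for the thresholded list (left) and the pooled list (right), each cluster with 5000 bp on either side. The Enhancer of split complex has 2.06 thresholded and 6.74 pooled summits per 10 kb.

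Of 38 genes of the Notch pathway outside the list, 16 (42.1%) had a TSS within 1000 bp of a thresholded summit and 18 (47.4%) within 5000 bp, beside the 18.7% and 36.7% of all genes. Among these is gro, whose summits are also counted in the complex. The highest signalValue, 569.5, was at 3816 bp upstream of O-fut1, the O-fucosyltransferase that modifies Notch, at rank 133 (127 in replicate 1 and 136 in replicate 2). It was followed by numb, an inhibitor of Notch, with 417.1 at 233 bp upstream (ranks 262 and 281 in the replicates), by aph-1, a subunit of gamma-secretase, with 295.5 at 394 bp upstream (ranks 445 and 801), and by neur, the ligase that Bearded family proteins bind, with 254.7 at 152 bp upstream (ranks 559 and 864). These 4 values exceed the 251.0 of E(spl)m7-HLH. The O-fut1 summit lay beyond 1000 bp of its TSS, and whether another gene is nearer to it is not reported here.

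By role, the receptor gene N had a thresholded summit within 1000 bp, as did 1 of 2 ligand genes (Delta), 2 of 3 ligand endocytosis genes (neur, mib1), 2 of 3 glycosylation genes (fng, rumi), 1 of 5 cleavage genes (aph-1), 4 of 5 genes of the nuclear complex and corepressors (mam, H, gro, CtBP) and 3 of 4 trafficking regulators (numb, dx, Nedd4). Of the other bHLH-Orange repressor genes it was 1 of 3 (hry), of the Bearded family genes elsewhere 0 of 4, and of the proneural genes and partners 1 of 8 (emc). The gene of Su(H) itself had none within 5000 bp, and da, a partner of the proneural proteins, had one at 1592 bp upstream. The part of gene length, promoter number or expression in these counts was not tested.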

How the data were processed

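The 4 deposited narrowPeak lists were used. Per the deposited manifests, the authors called 1 list on each replicate and 1 on both together, each against a control alignment, on dm6, and kept in the thresholded list what passed their irreproducible discovery rate threshold. Aligner and peak caller: not given in the sources used here. Each signalValue is the authors' peak score, on a scale not given. The deposited −log10 q-value is tied at its top and served only for alternatives. The thresholded peaks are the 3672 pooled peaks of highest signalValue. Repeated positions were counted 1 time.

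Summits were placed on the Ensembl release 115 annotation (18277 genes and 24111 TSSs, without transposable elements) and the RefSeq release 6 sequence, with arm lengths that contain all peaks. A pooled peak was matched in a replicate to the overlapping peak (at least 1 bp) of nearest summit. Ranks are by signalValue. Python 3.11.15, pandas 2.3.3, numpy 2.4.6 and matplotlib 3.10.9 were used, and the functions were tested on simulated data.

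The members, gene lists, words and comparisons were chosen with earlier results of these data known. The text names the 10 genes, other genes of the region, and in other lists the members with a summit within 5000 bp, up to 4 with values. From the pathway list 3 entries were left out: BobB and BobC, not matched, and side, which is sidestep and was listed in error. The sequence of 1 word pair is not reported here. No test was made. The labels call the replicates biological but do not say whether they come from separate embryo collections. The control was not analysed here. Depth is unknown, so no interval is given. No paired analysis was possible because there is 1 group.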

Additional observations from a re-analysis of the deposited data

How the results depend on the processing

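Over 12 results and 51 alternatives, 38 values stayed within the limits set (1.5 times for counts) and 13 moved beyond them. With the stronger 50% of the thresholded list (1836 peaks), the complex held 6 thresholded summits in place of 11 (1.12 per 10 kb, GC content 26.9%), and 3 listed genes (E(spl)m2-BFM, E(spl)m3-HLH and E(spl)m7-HLH) had one within 1000 bp. Pathway genes with a summit within 5000 bp fell to 8 of 38. Within 500 bp, 3 listed genes had a thresholded summit. A shorter list or distance can only lower such counts, for any set of genes. The share of all annotated genes is not reported here for these alternatives, so the lower counts say nothing particular about these genes. GC content at the summits was 24.2%, 29.9% and 33.1% within 25, 100 and 150 bp, and 28.9 to 29.3% with the strongest peaks of either replicate alone. The median rank was 1544 in replicate 1 and 2501 in replicate 2. Requiring a −log10 q-value of at least 2 left 15 pooled summits in place of 36. The 3672 strongest peaks of each replicate alone, to which no reproducibility threshold applies, gave 9 summits in the complex. They placed a summit within 1000 bp of 4 listed genes: replicate 1 without E(spl)mdelta-HLH and replicate 2 without E(spl)malpha-BFM. The cause of these shifts was not tested. Su(H) words were at 0 of the summits of the complex under every alternative tried for that count. Over all thresholded summits the share was 2.72% at the main setting, so 0 is close to it. No counts were given, so what depth limits cannot be said. No paired analysis was possible because there is 1 group.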
